A study of Mus musculus with 7 samples.

Results

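Messenger RNA of 7 chemokine genes, Ccl6, Ccl9, Ccl25, Ccl28, Cxcl16, Cx3cl1 and Cxcl1, was measured in Paneth cells sorted from the small intestine of mice that drank dextran sulfate sodium (DSS), a polymer that injures the intestinal lining, or water alone. The 7 genes were picked by name from 52550 annotated genes. Ccl6 was picked because its level was very high and lower after DSS, so its levels and its difference between groups are given as a description, without a test. The series holds 7 libraries, 3 from water mice and 4 from DSS mice. The DSS mice received DSS at 3% for 7 days and were killed 3 days after it was withdrawn. Both groups were C57BL/6J mice carrying the Lgr5-EGFP-IRES-CreERT2 allele, which places a green fluorescent protein and an inducible recombinase under the control of Lgr5, a gene of crypt base stem cells. By age, water 1, water 2 and DSS 1 came from mice of 12 weeks, and water 3, DSS 2, DSS 3 and DSS 4 from mice of 10 weeks.

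Chemokines are small proteins that attract leukocytes along a concentration gradient by engaging G protein-coupled receptors. They are classed by the spacing of their first cysteines into CC, CXC and CX3C ligands. In the small intestine, epithelial chemokines help to place T cells and antibody-secreting cells in the mucosa, and Paneth cells, which sit at the crypt base among the stem cells, are best known for secreting antimicrobial peptides and lysozyme. Ccl6 and Ccl9 are rodent CC chemokines that lie side by side on chromosome 11 and act on the receptor Ccr1. Ccl25 draws Ccr9-bearing T cells to the small intestine, and Ccl28 draws Ccr10-bearing plasma cells to mucosal surfaces. Cxcl16 and Cx3cl1 are made as membrane-anchored proteins that proteases release, with Cxcr6 and Cx3cr1 as receptors. Cxcl1 attracts neutrophils through Cxcr2.

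Because Ccl6 and Ccl9 are neighbours whose mean levels lay on opposite sides of water in the DSS libraries, the 250 bases before the RefSeq start of each are shown, from build GRCm38.p6 and read on the minus strand from 5′ to 3′. Capitals mark runs of at least 10 bases that occur in both stretches. That of Ccl6 lies at chr11:83593088-83593337 and that of Ccl9 at chr11:83578637-83578886.
Ccl6: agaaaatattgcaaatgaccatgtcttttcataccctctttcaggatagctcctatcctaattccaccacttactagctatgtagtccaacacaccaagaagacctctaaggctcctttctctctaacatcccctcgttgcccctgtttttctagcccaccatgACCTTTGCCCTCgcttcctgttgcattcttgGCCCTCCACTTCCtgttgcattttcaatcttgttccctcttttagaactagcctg
Ccl9: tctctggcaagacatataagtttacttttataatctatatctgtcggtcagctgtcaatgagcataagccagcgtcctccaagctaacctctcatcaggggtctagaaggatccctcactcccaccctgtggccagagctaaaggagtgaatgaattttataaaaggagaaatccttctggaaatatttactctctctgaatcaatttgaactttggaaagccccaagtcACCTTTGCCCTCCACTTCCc
The longest run in capitals was 13 bases in Ccl6, which holds 2 such runs, and 19 bases in Ccl9, which holds 1. The run next to the start of Ccl9 therefore matches parts of 2 separate places upstream of Ccl6. The stretches were otherwise similar in base composition, with 45.2% and 43.6% G or C. RefSeq promoter entries were found for 6 of the 7 genes, the exception being Cxcl16. The letters TATAAA, the core of a TATA box, were searched on both strands, and 13.0% of 27025 mouse promoter stretches of this length hold them. The Ccl9 stretch holds TATAAA on its own strand with its first base 92 bases before the start, and on the opposite strand at 94 and 224 bases, the first of which overlaps the match at 92. Of the other genes, Ccl25 holds it 16 bases before 1 of its 2 RefSeq starts, and Cx3cl1 holds it 6 bases before its start. TGANTCA, the AP-1 motif, which 6.87% of stretches hold, also occurs in the Ccl9 stretch, 53 bases before the start, as a single site that reads alike on both strands. The Ccl6 stretch holds neither set of letters, and neither stretch holds TTCNNNGAA (STAT, in 7.18% of stretches) or CTTTGAT (TCF/LEF, in 3.23%). Such matches describe letters and say nothing of what binds there.

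All 16 genes of a Paneth cell list had enough counts to be tested. So had all 12 enterocyte, 7 goblet, 10 tuft, 12 enteroendocrine and 8 crypt base stem cell markers. The summed level of the Paneth cell markers was 260901, 278485 and 268816 CPM, counts scaled to a common library size, in water 1 to 3. In DSS 1 to 4 it was 222849, 178157, 128171 and 135606 CPM. Stem cell markers summed to 4435 to 5288 CPM in water and 4314 to 5273 CPM in DSS. Enteroendocrine markers summed to 79.8, 1825 and 3196 CPM in water 1 to 3 and to 836 to 1654 CPM in DSS. CPM values here are scaled by TMM, a method that corrects for a few genes taking up much of a library. Library totals ran from 23175708 to 32451653 counts. Per the protocols in the labels, dissociated crypt cells were gated on side scatter and CD24, and cells bearing CD45, CD31 or TER119 were left out of the sort. The RNA isolation dates were November 14 for water 1 and 2, November 21 for water 3, November 9 for DSS 1, November 16 for DSS 2 and 3 and November 24 for DSS 4. No day held both groups, so the day and the treatment cannot be told apart. The labels do not say outright that each library is 1 animal, so p-values cover the spread between these samples.

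Ccl6 was by far the most abundant of the 7 genes per length. In CPM per kilobase of exon (RPKM), its level was 1378 ± 71.3 (SD, n = 3) in water and 837 ± 265 (SD, n = 4) in DSS. Ccl9 followed with 74.4 ± 12.4 RPKM in water and 100.4 ± 34.5 in DSS. Ccl28 was next at 13.7 ± 0.937 RPKM in water and 13.8 ± 1.82 in DSS. Ccl25 stood close below it at 10.1 ± 1.46 RPKM in water and 11.2 ± 1.06 in DSS. The pair did not overlap in water but did in DSS, and their order depends on the length taken: in CPM, without length, Ccl25 was the higher on average in both groups. Cx3cl1 had 2.06 ± 0.194 RPKM in water and 2.30 ± 0.481 in DSS. Cxcl16 was lower still, at 0.404 ± 0.200 RPKM in water and 0.268 ± 0.0474 in DSS. Cxcl1 was at or under the limit of detection. Apart from Ccl28 and Ccl25, no neighbours in this order overlapped in any library of either group.

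**Figure D1:**
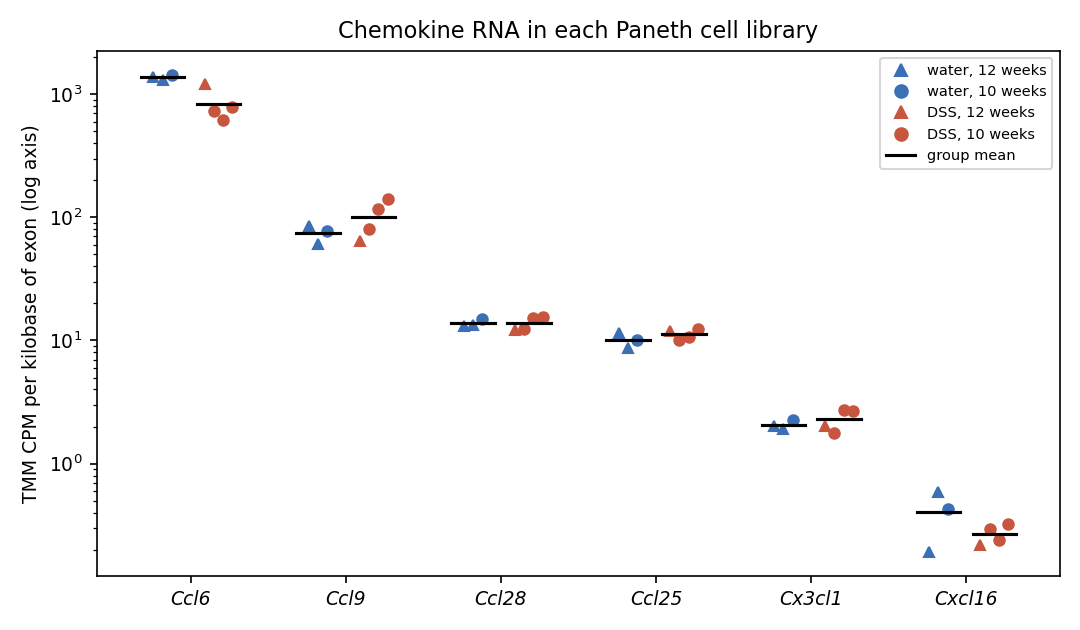
Level of 6 of the 7 chemokine genes in each library, in TMM-scaled CPM per kilobase of exon on a log axis; points are libraries, colours are groups, triangles and circles are 12-week and 10-week mice, and bars are group means. Ccl6 stands above all others in every library, and the only neighbours whose points overlap are Ccl28 and Ccl25, in DSS. Cxcl1, with libraries at 0 counts, is not drawn.

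Ccl6 (ENSMUSG00000018927.3) lies at chr11:83587882-83593087 on the minus strand and has 1795 annotated exon bases. Its level was 2490, 2338 and 2592 CPM in water 1 to 3, and 2188, 1300, 1103 and 1416 CPM in DSS 1 to 4. On this TMM scale all 4 DSS libraries lay below all 3 water libraries, with DSS 1 close to water and DSS 3 lowest. Over all 17449 genes tested, 7.51% had every DSS library below every water library. The mean was 2473 ± 128 CPM (SD, n = 3) in water and 1502 ± 475 CPM (SD, n = 4) in DSS, and the fitted log2 change was -0.72 ± 0.21 (SE), a level 0.607 times that of water. Relative to the water mean, DSS 1 was at -0.18 on the log2 scale and DSS 2, 3 and 4 at -0.93, -1.16 and -0.80. Among the 12-week mice alone the log2 change was -0.15, and among the 10-week mice alone it was -1.02, the first resting on DSS 1 and the second on water 3 as the lone library of its group.

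Raw counts of Ccl6 were 55812, 48653 and 61803 in water and 49644, 44153, 32112 and 46650 in DSS. It took 0.210% to 0.239% of all counts in the water libraries and 0.126% to 0.214% in the DSS libraries (95% Wilson interval of water 2, 0.208% to 0.212%, counting error only). On this scale, without TMM, DSS 1 lay above water 2 and the groups overlapped, and the log2 change with library totals alone was -0.51. Ranked by RPKM among all genes, Ccl6 stood at place 46 to 48 in water and at 48 to 64 in DSS. Ccl9 stood at place 421 to 657 in water and at 250 to 611 in DSS. The summed Paneth cell markers, given above, were also lower in every DSS library than in every water library, a sum carried by a few abundant genes such as Lyz1, the lysozyme gene (log2 change -0.96 ± 0.27, edgeR adjusted p = 0.174). Of the 16 markers 0 were called, 11 had lower and 5 higher estimates, and the median log2 change was -0.29. Every DSS library lay below water for 5 of them, and above water for 1, the Wnt receptor Fzd5 (0.31 ± 0.08, adjusted p = 0.153). Of all genes tested, 7.51% had every DSS library below water and 7.40% above. In these bulk samples fewer cells of a type and less RNA per cell cannot be told apart, and the part of the marker difference in that of Ccl6 was not tested. DSS 1, with the highest Ccl6 of the DSS libraries, also had their highest Paneth cell sum, and DSS 3 had the lowest of both. DSS 2 and DSS 4 went the other way, with Ccl6 higher in DSS 4 and the Paneth cell sum higher in DSS 2.

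The sort could still hold white blood cells, which are known sources of Ccl6 and Ccl9 in other tissues. Of 16 myeloid markers, 10 had at most 3 counts in every library, among them Tyrobp and Fcgr3, which are found across myeloid cells, and S100a8, S100a9 and Csf3r, which mark neutrophils. The others, Itgam, Csf1r, Cd68, Cd14, Fcer1g and Mrc1, exceeded 3 counts in some library. Of the 16, 4 were tested and 0 were called, with 3 higher and 1 lower estimates and a median log2 change of 0.35. The summed level of the 16 was 6.07 to 9.03 CPM in water and 6.42 to 8.62 CPM in DSS. Of 15 lymphocyte markers, 11 had at most 3 counts in every library, and the summed level was 8.98 to 14.3 CPM in water and 8.47 to 17.8 CPM in DSS. The part of white blood cells in the levels of Ccl6 and Ccl9 was not tested.

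**Figure D2:**
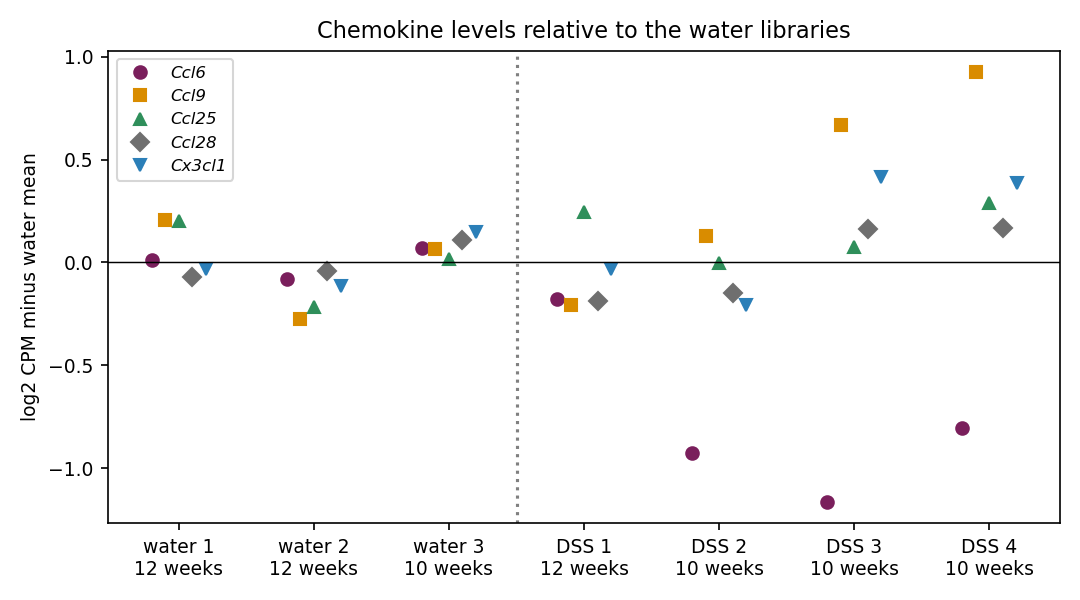
Level of 5 chemokine genes in each library on the log2 scale, relative to the gene's own water mean; symbols and colours are genes, and the dotted line parts water from DSS libraries. Ccl6 goes from -0.18 in DSS 1 to -1.16 in DSS 3, Ccl9 from -0.21 in DSS 1 to 0.93 in DSS 4, and for Ccl9, Ccl25, Ccl28 and Cx3cl1 the groups overlap. Cxcl16, with few counts, is not drawn.

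Ccl9 (ENSMUSG00000019122.8), the neighbour of Ccl6, lies at chr11:83572919-83578636 on the minus strand with 3045 exon bases. Its level was 259, 185 and 235 CPM in water 1 to 3, against 195, 245, 357 and 426 CPM in DSS 1 to 4. DSS 3 and DSS 4 lay above all water libraries, whereas DSS 1 and DSS 2 lay within their range, so the groups overlapped. The mean was 227 ± 37.7 CPM (SD, n = 3) in water and 306 ± 105 CPM (SD, n = 4) in DSS. The log2 change was 0.43 ± 0.25 (SE), with a 95% interval from -0.13 to 0.997, and did not pass edgeR's quasi-likelihood test (Benjamini-Hochberg adjusted p = 0.442). Among the 12-week mice it was -0.20 and among the 10-week mice 0.55, and without DSS 4 it was 0.23. Summed tuft cell markers were 536 to 610 CPM in water and 549, 1024, 1033 and 510 CPM in DSS 1 to 4, so DSS 4, the library with the highest Ccl9, had the lowest tuft cell sum. DSS 4 also had the highest sum of goblet cell markers, 9927 CPM, against 6031 to 7433 CPM in water and 5266 to 6433 CPM in DSS 1 to 3. DSS 3, second highest in Ccl9, had the highest tuft cell sum and the lowest goblet cell sum. The part of either cell type in the Ccl9 level was not tested.

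Within a library the ratio of Ccl6 to Ccl9 does not depend on scaling between libraries. There were 9.60, 12.6 and 11.0 Ccl6 counts for each Ccl9 count in water 1 to 3, against 11.2, 5.30, 3.09 and 3.32 in DSS 1 to 4. DSS 1 lay inside the water range and the 3 other DSS libraries were below it. Per exon length the mean ratio was 18.8 ± 2.55 (SD, n = 3) in water and 9.73 ± 6.44 (SD, n = 4) in DSS. As a share of the summed CPM of all 7 genes, Ccl6 made up 85.6%, 87.8% and 86.8% in water and 86.2%, 77.0%, 67.9% and 70.1% in DSS. The 3 lower libraries are those of the 10-week DSS mice, and the single 10-week water mouse, water 3, had a ratio of 11.0. Since Ccl6 was picked for its level after DSS, its ratio to Ccl9 was not tested.

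**Figure D3:**
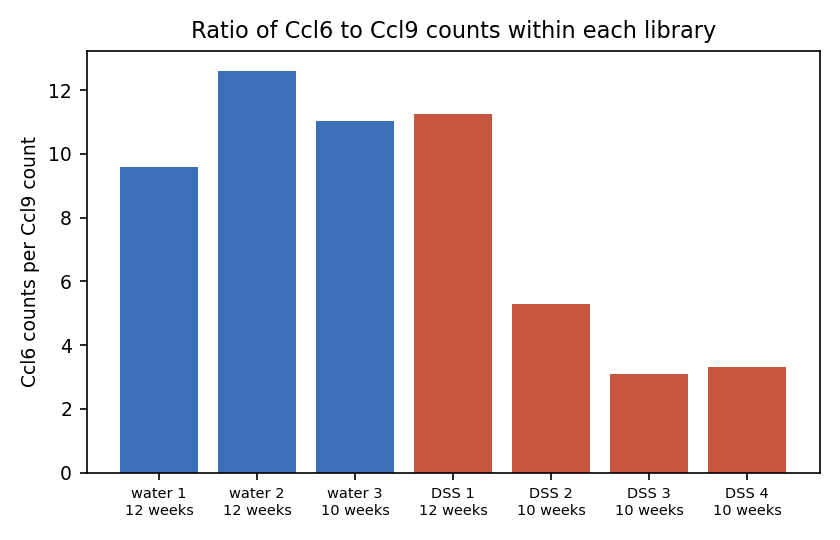
Raw Ccl6 counts divided by raw Ccl9 counts in each library, with the age of the mouse under each bar; each bar is 1 library and the axis starts at 0. Water libraries and DSS 1 range from 9.60 to 12.6, and DSS 2 to 4 from 3.09 to 5.30.

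The longest run that annotated transcripts of Ccl6 and Ccl9 share is 25 bases. Of 1743 words of 50 bases in Ccl6 transcripts, 0 occur in another gene's transcripts, and for Ccl9 59 of 2996 do. The start sites of Ccl6 and Ccl9 are 14.5 kb apart. E230016K23Rik, a noncoding gene on the opposite strand, spans the Ccl6 gene without sharing an exon base with it. It had 240 to 365 counts per library and a log2 change of -0.36 ± 0.20 (adjusted p = 0.434). Its DSS 1 level of 16.0 CPM lay above all water libraries and its other 3 DSS levels, 10.7, 8.24 and 10.3 CPM, lay below them. The CC chemokine genes Ccl3, Ccl4 and Ccl5 on either side had at most 4 counts in any library. In these libraries counts from this stretch of chromosome 11 came mostly from Ccl6, Ccl9 and Taf15, a ubiquitous RNA-binding protein gene.

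**Figure D4:**
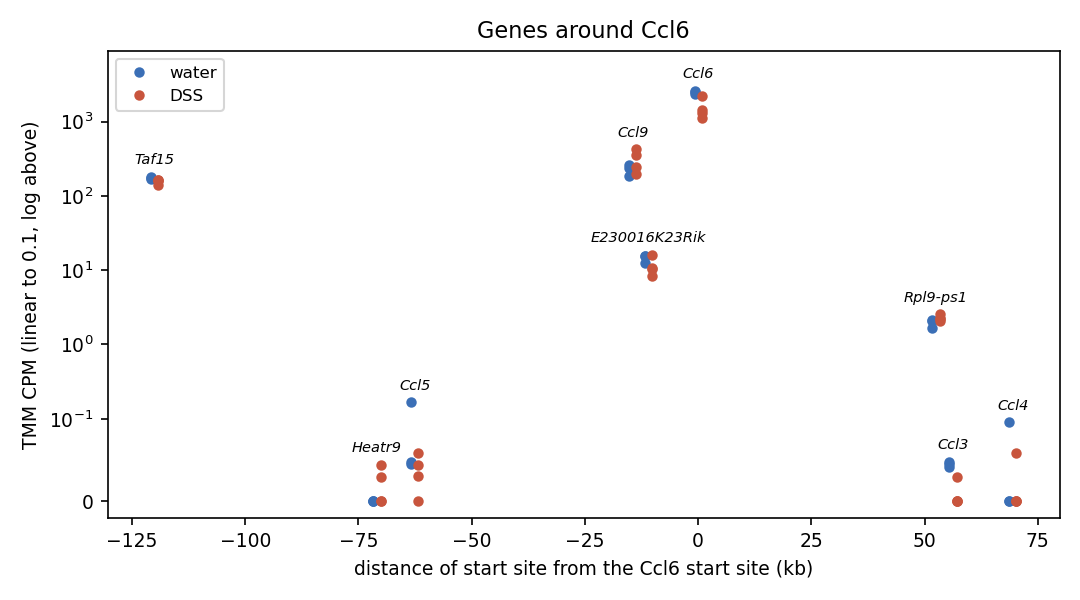
Level of genes within 100 kb of Ccl6, and of Taf15 whose end lies in that window, in TMM-scaled CPM (linear to 0.1, log above), against the distance of their start sites from that of Ccl6 in kilobases; each point is a library, with water and DSS drawn slightly side by side. Ccl6 and Ccl9 are at 1103 to 2592 and 185 to 426, while Ccl3, Ccl4 and Ccl5 lie at or near 0.

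Ccl25 (ENSMUSG00000023235.14), the homing signal for small intestinal T cells, lies at chr8:4325210-4360020 on the plus strand with 7445 exon bases. It measured 86.2, 64.4 and 75.7 CPM in water and 88.8, 74.8, 79.0 and 91.5 CPM in DSS. The groups overlapped, although DSS 1 and DSS 4 lay above the highest water library. The mean was 75.4 ± 10.9 CPM (SD, n = 3) against 83.5 ± 7.88 CPM (SD, n = 4), a log2 change of 0.15 ± 0.11 (95% interval -0.10 to 0.39, edgeR adjusted p = 0.559). It shares 204 exon bases, 2.74% of its exons, with Elavl1 on the opposite strand, and counts were made without a strand setting.

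Ccl28 (ENSMUSG00000074715.3), the plasma cell attractant, lies at chr13:119623819-119654359 on the plus strand with 4844 exon bases. Its levels were 63.3, 64.7 and 71.8 CPM in water and 58.4, 60.1, 74.4 and 74.6 CPM in DSS. DSS 1 and 2 were below all water libraries and DSS 3 and 4 above them. The means, 66.6 ± 4.54 CPM (SD, n = 3) and 66.9 ± 8.84 CPM (SD, n = 4), gave a log2 change of 0.0064 ± 0.10 (95% interval -0.23 to 0.24, edgeR adjusted p = 0.985). The sign of the estimate turned under 8 of 18 alternatives, and with library totals only it was 0.25.

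Of the membrane-anchored ligands, Cx3cl1 (ENSMUSG00000031778.13, chr8:94772009-94782427, plus strand, 3930 exon bases) measured 7.90, 7.45 and 8.93 CPM in water and 7.89, 6.98, 10.8 and 10.5 CPM in DSS. DSS 3 and 4 were above all water libraries, DSS 2 was below them and DSS 1 was level with water 1. The log2 change was 0.16 ± 0.17 (95% interval -0.22 to 0.54, edgeR adjusted p = 0.701), between 8.09 ± 0.762 CPM (SD, n = 3) and 9.04 ± 1.89 CPM (SD, n = 4). Cxcl16 (ENSMUSG00000018920.11, chr11:70453983-70459984, minus strand, 3021 exon bases) had 13, 37 and 31 counts in water and 15, 30, 21 and 32 in DSS, or 0.580, 1.78 and 1.30 CPM against 0.661, 0.884, 0.721 and 0.971 CPM. The groups overlapped and the lowest library was water 1. Its log2 change of -0.57 ± 0.35 (95% interval -1.37 to 0.22, edgeR adjusted p = 0.471) rests on these few counts, and 18.3% of its exon bases are shared with Zmynd15 on the opposite strand.

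Cxcl1 (ENSMUSG00000029380.11, chr5:90891241-90893115, plus strand, 1875 exon bases), the neutrophil attractant, had 0, 1 and 0 counts in water and 0, 3, 2 and 0 in DSS. All libraries were at or under 3 counts, which correspond to 0.0924 to 0.129 CPM at these depths before TMM scaling. No fold is given, and a difference was not detectable at this depth.

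Over all genes, edgeR called 0 of 17449 genes in either direction at the threshold of 0.05 on the adjusted p, which is 0.00% higher and 0.00% lower, and 15.7% had an unadjusted p under 0.05. DESeq2, run as an alternative, called 2.61% of 13315 genes higher and 2.23% lower, and limma-voom called 0 in either direction. Of the 7 chemokine genes, 6 had enough counts to be tested, and 0 of the 5 besides Ccl6 passed under edgeR or under any alternative. None of those 5 had groups that did not overlap, against 7.40% of all genes with every DSS library above and 7.51% with every DSS library below. The libraries' profiles, each centred on the gene's mean, were compared by the root mean square difference in log2 CPM. They were closest for Ccl28 and Cx3cl1, at 0.121, and farthest apart for Ccl6 and Ccl9, at 0.805, followed by Ccl9 and Cxcl16, at 0.750. As Ccl6 was picked for its lower level after DSS, its distances from the others are no test.

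**Figure D5:**
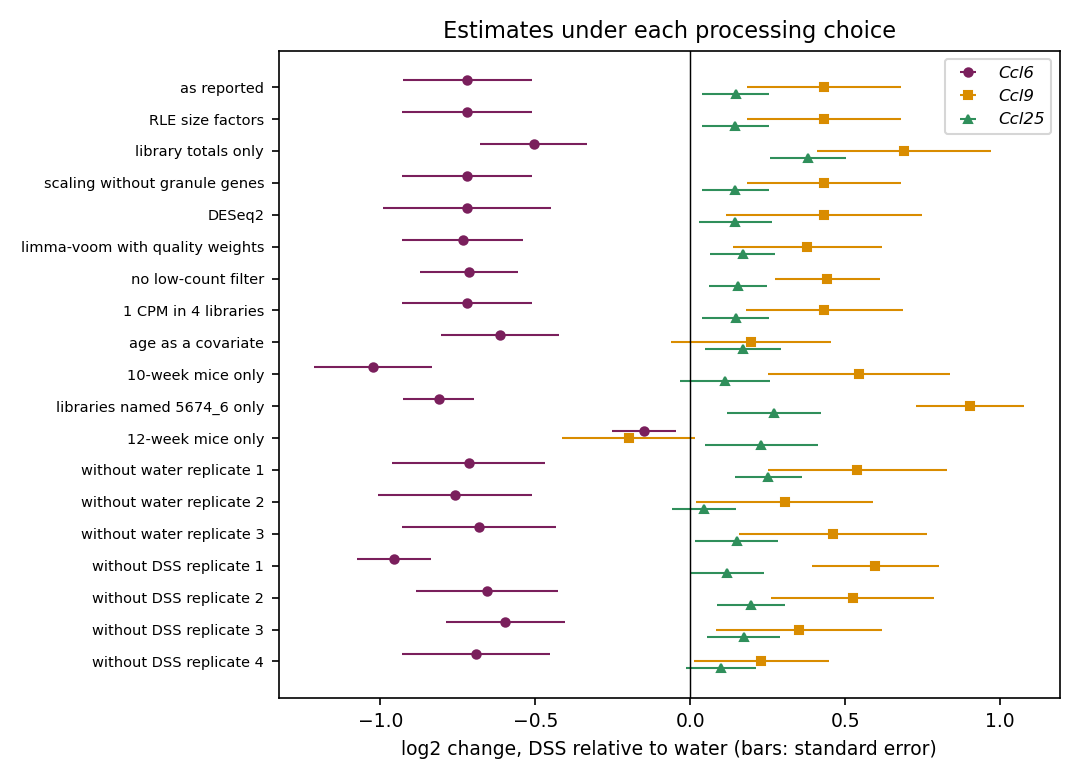
Log2 change in DSS relative to water for Ccl6, Ccl9 and Ccl25 as reported and under each alternative; points are estimates and bars are standard errors. Ccl6 is below 0 in every fit, from -1.02 with 10-week mice only to -0.15 with 12-week mice only, and Ccl9 is below 0 only with 12-week mice.

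The genes whose profile over the 7 libraries lay nearest to that of Ccl6, out of 9117 searched, were Dnajc12, Defa30, Smim3, Gnat2 and Guca2b. The search took tested genes whose mean log2 CPM reached 3, leaving out predicted, unnamed, clone and pseudogene symbols. Dnajc12, a cochaperone, was the nearest at a distance of 0.0828, with 27.2, 23.5 and 29.8 CPM in water and 23.1, 15.2, 13.1 and 16.4 CPM in DSS. Defa30, an alpha-defensin of Paneth cell granules, followed at 0.0888, and Smim3 at 0.106. Gnat2, a transducin subunit, stood at 0.120 and Guca2b, the precursor of the gut peptide uroguanylin, at 0.143. In all 5, DSS 1 was the highest of the DSS libraries, while the order of the other DSS libraries varied. Their log2 changes lay between -0.83 for Defa30 and -0.59 for Guca2b, and as they were chosen for likeness to Ccl6 these are no test. Alpha-defensin genes are near-identical copies, so reads may be split among them.

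Further chemokine ligands were nearly silent. Of 32 other ligand genes, 25 had at most 3 counts in every library, among them Ccl2, Cxcl2 and Cxcl5, which attract monocytes and neutrophils in inflamed tissue, and 4 were tested. The 4 gave 0 calls and a median log2 change of -0.49, and 3 had all DSS libraries below all water libraries. Over all genes tested the median was -0.0015 and the share was 7.51%. Ccl20 and Cxcl11, among the 4, had low levels, and a gene can pass the count filter through its higher group alone. The median and the count of the 4 are therefore not read against all genes. Ccl27a, an epithelial ligand of Ccr10 like Ccl28, measured 5.35, 4.76 and 4.78 CPM in water and 4.54, 3.98, 4.19 and 4.49 CPM in DSS (log2 change -0.21 ± 0.12, edgeR adjusted p = 0.430, and 0.027 with library totals only). Cxcl13, a B cell attractant, had a log2 change of -0.06 ± 0.27 (edgeR adjusted p = 0.939). The other tested ligands, Ccl20 and Cxcl11, are named after their values were seen, and each was at or below 1.05 CPM in every library. Their log2 changes were -0.77 ± 0.40 (adjusted p = 0.395) and -1.50 ± 0.47 (adjusted p = 0.199). Of Cxcl11 exon bases 41.7% are shared with Gm2673 on the opposite strand.

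Receptors for the 7 chemokines were scarce in the sorted cells. Ccr1, the receptor of Ccl6 and Ccl9, had 0 counts in every library, which allows up to 0.129 CPM before TMM scaling. Ccr9, the receptor of Ccl25, was at 0.294 to 0.336 CPM in water and 0.147 to 0.212 CPM in DSS, below the depth at which genes were tested. Ccr10 did not exceed 0.402 CPM, Cxcr6 0.192 CPM or Cxcr2 0.0589 CPM, and Cx3cr1 reached 0.671 CPM. Of 24 receptor genes 14 had at most 3 counts in every library, 5 were tested and 0 were called, with a median log2 change of -0.36. Ccrl2, an atypical receptor that binds chemerin and does not signal for migration, was at 5.31, 7.02 and 6.33 CPM in water and 5.07, 4.48, 4.12 and 4.25 CPM in DSS, all DSS libraries below water (log2 change -0.47 ± 0.14, edgeR adjusted p = 0.177). Ackr4, which scavenges Ccl25, ranged from 5.16 to 9.52 CPM with overlapping groups (log2 change 0.14 ± 0.24, adjusted p = 0.821), and 8.90% of its exon bases are shared with Acad11. Cxcr4 and Ackr1 also overlapped, with log2 changes of -0.36 ± 0.26 (adjusted p = 0.544) and -0.75 ± 0.32 (adjusted p = 0.306), and 25.7% of Ackr1 exon bases are shared with Cadm3. Without water 3 the Cxcr4 estimate was -0.075, and with 10-week mice only it was -0.69.

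Adam10 and Adam17, the metalloproteases known to shed Cx3cl1 and Cxcl16 from the cell surface, were at 98.5 to 98.7 and 28.4 to 33.0 CPM in water and at 99.0 to 108 and 30.4 to 34.2 CPM in DSS. Neither passed the test, with log2 changes of 0.07 ± 0.05 (edgeR adjusted p = 0.587) and 0.05 ± 0.07 (adjusted p = 0.786). Of 15 genes that shed, cleave or tether chemokines 13 were tested and 0 were called, with a median log2 change of 0.05. Every DSS library lay above water for 2 and below water for 0, against 7.40% and 7.51% of all genes tested. Of the 4 with the smallest p, the larger estimates were those of Rhbdf1, an inactive rhomboid that helps Adam17 mature, at 0.30 ± 0.09 (adjusted p = 0.202), and Mmp7, the matrix metalloproteinase that activates alpha-defensins, at -0.26 ± 0.15 (adjusted p = 0.433), with 11.5% of its exon bases shared with AV064505. Ndst1 and Sdc1, which build and carry the heparan sulfate that holds chemokines, had log2 changes of -0.17 ± 0.08 (adjusted p = 0.343) and 0.17 ± 0.09 (adjusted p = 0.392). With library totals only the estimate of Ndst1 was 0.062.

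The NF-kB pathway drives many inflammatory chemokines, Cxcl1 among them. Of 25 of its genes 24 were tested and 0 were called, with a median log2 change of 0.02. All DSS libraries lay above water for 1 and below water for 1, against 7.40% and 7.51% of all genes tested. Tnfaip3, an inhibitor of the pathway that is also its target, measured 9.37, 10.9 and 10.3 CPM in water and 11.2, 12.9, 12.2 and 12.4 CPM in DSS (log2 change 0.26 ± 0.10, edgeR adjusted p = 0.251). Chuk, the kinase IKK alpha, was at 73.3 to 81.0 CPM in water and 66.2 to 69.9 CPM in DSS (log2 change -0.16 ± 0.06, edgeR adjusted p = 0.253, and 0.080 with library totals only). Relb, a subunit of the noncanonical arm, and Irak1, a kinase of the toll-like receptor pathway, had log2 changes of 0.32 ± 0.14 (adjusted p = 0.306) and -0.14 ± 0.07 (adjusted p = 0.388), the latter 0.087 with library totals only.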

How the data were processed

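RNA-seq counts were analysed for 3 water and 4 DSS libraries, grouped by the treatment given in the labels. The deposited counts per gene were made by the authors with featureCounts 1.5.3 on GENCODE release 15, per the file headers, which record gene-level exon counting of primary alignments with at least a fraction 0.8 of the read overlapping and strand left unset. Alignment with STAR 2.5.3a, the tools featureCounts 1.5.2 and DESeq2, and genome build mm10 are named in the submitters' processing notes. A read with several matches therefore counts at its primary alignment, and overlapping genes on opposite strands cannot be told apart. The read length is not given in the sources used here. The deposited gene length, in bases of exon, is the other value used per the file headers. Symbols were matched by identifier in GENCODE release 21 for 52403 of 52550 genes. Promoters came from RefSeq.

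Counts were tested in R 4.3.3 with edgeR 4.0.16. After filterByExpr 17449 genes were tested, scaled by TMM factors of 0.899 to 1.14. DSS was set against water by the quasi-likelihood test without a covariate, with Benjamini-Hochberg adjustment over all genes and a threshold of 0.05. Log2 changes carry the fit's standard error. The fit was checked on simulated counts. Alternatives were DESeq2 1.42.0, limma 3.58.1 with sample weights, other scalings and filters, age as a covariate, subsets of libraries and leaving out each library. Total counts of 23175708 to 32451653 put 3 counts at 0.0924 to 0.129 CPM before TMM scaling.

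The 7 chemokine genes, the gene lists and the tests were chosen with earlier results of these data known. Genes named beyond the 7 were other ligands with at least 1 CPM on average, the 4 most abundant receptors, the 4 genes with the smallest p in the shedding and the NF-kB lists, and the 5 profiles nearest to Ccl6, with Adam10, Adam17 and the receptors of the 7 chemokines added after their values were seen.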

Additional observations from a re-analysis of the deposited data

How the results depend on the processing

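No paired analysis was possible because replicate numbers were given in accession order and pair nothing. The log2 change of Ccl6 lay between -1.02 and -0.51 under all alternatives but one, the 12-week mice alone, where it was -0.15. Leaving out 1 library gave -0.96 to -0.60. Ccl9 was above 0 except with the 12-week mice (-0.20), with 0.23 to 0.60 on leaving out 1 library and 0.20 with age as a covariate. It was 0.69 with library totals only (edgeR adjusted p = 0.110). With the 4 libraries whose file names share a field, water 1 to 3 and DSS 4, it was 0.90. DSS 1 to 3 carry other fields there, and the field is used here only as a name. The 12-week fit was added after seeing the data, and with 1 DSS library it assumes that this library varies like the water libraries. Ccl28 changed sign with limma-voom (-0.011), age as a covariate (-0.084), 10-week mice (-0.041), 12-week mice (-0.14), and without water 1 (-0.030), water 2 (-0.016), DSS 3 (-0.048) or DSS 4 (-0.050), and was at most 0.066 on leaving out another library, 0.16 with these 4 libraries and 0.25 with library totals only. Ccl25 and Cx3cl1 stayed above 0 and Cxcl16 below 0 in every alternative that gave a value, and Cxcl16 gave none when 1 CPM in 4 libraries was required. Ccl25 ran from 0.044 without water 2 to 0.38 with library totals only (adjusted p = 0.0624), Cx3cl1 from 0.033 with 12-week mice to 0.41 with library totals only, and Cxcl16 from -0.91 without water 1 to -0.21 without water 2. Without length, the log2 ratio of Ccl28 to Ccl25 was -0.18 in water, where it was 0.44 per length, and -0.32 in DSS, where it was 0.30.

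With library totals only, the sign turned for Ccl27a (0.027), Cxcl13 (0.16), Ndst1 (0.062), Chuk (0.080) and Irak1 (0.087), and the median of all genes moved from -0.0015 to 0.23. On that scaling Rhbdf1 (0.53), Sdc1 (0.40), Tnfaip3 (0.50) and Relb (0.56) passed the test, with adjusted p from 0.0350 to 0.0407, as did Defa30 (-0.61) and Gnat2 (-0.50). Of the 5 profiles nearest to Ccl6, Dnajc12, Defa30, Gnat2 and Guca2b also passed with DESeq2, and these and Smim3 with no filter. Without DSS 1, Dnajc12, Defa30, Smim3 and Gnat2 passed. As these genes were chosen for likeness to Ccl6, their calls under any alternative are no test. Cxcl13 also turned with age as a covariate (0.21), 10-week mice (0.18), 12-week mice (0.23), and without water 1 (0.071) or DSS 3 (0.054), and was -0.24 without DSS 1. Ackr4 turned with age as a covariate (-0.050), these 4 libraries (-0.31) and 12-week mice (-0.33). With 12-week mice Ackr1 (0.086) and Ndst1 (0.040) turned, and Sdc1 turned with these 4 libraries (-0.0044). Counts of genes called higher and lower were 0 and 0 as reported, 2107 and 28 with library totals only, 347 and 297 with DESeq2, 240 and 201 with no filter, 3 and 6 with these 4 libraries and 2 and 0 with 12-week mice. Leaving out 1 library gave 0 to 168 higher and 0 to 135 lower, the largest without DSS 1. The cause was not tested.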
